A study of Mus musculus with 2 samples.

Results

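A splice junction in RNA sequencing is a read that maps to the genome as 2 blocks with a gap between them. The junctions described here are those for which neither edge of the gap was a known splice site. They were taken from the junction table of embryonic mouse brain, on genome build mm9. A junction was a member when it carried no annotation mark, had 10 reads or more over both replicates, had a reproducibility value of 0.1 or less, and when its donor edge and its acceptor edge both differed from every donor and acceptor of the Ensembl 65 introns on the same strand. The rule kept 14161 junctions, which is 37.2% of the 38027 unannotated junctions past the same thresholds. The nearest kinds in the same table were 17873 unannotated junctions with 1 new splice site and 5993 that joined 2 known sites, beside 156029 annotated junctions. The members were thus selected on reads and reproducibility, so read numbers are given as a description with no test attached.

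The tissue was whole brain of C57BL/6J embryos at day 14.5, from littermates of both sexes, and no treatment or mutation is given. The 2 libraries, replicate 1 and replicate 2, form 1 group, so the design holds no contrast between conditions. Both were stranded paired-end libraries made from polyadenylated RNA that had also been depleted of ribosomal RNA. Nothing in the labels says how the animals were divided between the libraries, and differences between them may be technical. The junction table gives a first and a second replicate read number for each junction, and no source ties these to a library, so they are called the first and the second replicate number below. They sum to 52704888 and 47694368 junction reads, of which the members held 1.44% and 1.45%. All 9 brain markers examined were present, between 24.2 and 2753 TPM over both libraries (transcripts scaled for gene length and to a fixed library total), and Tubb3, a neuronal tubulin, stood at 2753 and 2640 TPM. Markers of other cells were present too, with Hbb-bs of red blood cells at 2905 and 2913 TPM and the collagen gene Col1a1 at 36.6 and 146, and among the brain markers the cortical neuron gene Neurod6 differed between the libraries, at 156 and 49.2 TPM. In bulk tissue, fewer cells of a type and less RNA per cell cannot be told apart, and the part of cell types in the results below was not tested.

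Introns are removed by the spliceosome, which recognises short sequences at the donor (the start of the intron) and the acceptor (its end). Nearly all introns begin with GT and end with AG, a small group begins with GC instead, and a rarer group begins with AT and ends with AC and is mostly removed by a separate minor spliceosome. The developing brain uses alternative splicing heavily and transcribes many noncoding RNAs, so unannotated junctions are plentiful there. A gap in an alignment also arises wherever a read joins 2 places of the genome by any other route, for example between copies of a repeat, and the gap alone does not say which.

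The sequences below show the kinds of members that the results turn on. Each line is a window of 30 bases on the transcribed strand around 1 edge of the gap, with 15 bases on either side, taken from GENCODE M21 transcripts whose exon lengths match the mm9 transcript of the same identifier, with coordinates in mm9. In the first set the capitals mark the first 2 bases (donor) and the last 2 bases (acceptor) of the gap. Slc25a3, the mitochondrial phosphate carrier, is listed at chr10:90586451-90586659 on the minus strand with 9927 reads, and an annotated intron of the same length begins and ends 1 base upstream of it along the transcript. It shows how the listed edges and the annotated edges of 1 intron relate.
Slc25a3 donor as listed: gttcgccatcttaggCAagtgagcgcgacc
Slc25a3 acceptor as listed: tgtctcccccgcaGGaggatgttctcgtcc
Slc25a3 donor as annotated: gttcgccatcttagGCaagtgagcgcgacc
Slc25a3 acceptor as annotated: tgtctcccccgcAGgaggatgttctcgtcc
Both placements give the same joined exon sequence, and the annotated one reads GC-AG.

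Pebp1, which encodes an inhibitor of Raf kinase, is listed at chr5:117735827-117736139 on the minus strand with 3289 reads and edges of GT and AG, and its annotated intron lies 4 bases upstream with edges of GC and AG. Ciao2b, an assembly factor for iron-sulfur proteins, is listed at chr8:107165289-107165446 on the minus strand with 1446 reads, and its annotated intron lies 2 bases upstream and reads AT-AC. They are shown because the listed and the annotated placement differ in class. The capitals again mark the first and last 2 bases of the gap.
Pebp1 donor as listed: cccaaattcaggccaGTtggggaaaagatg
Pebp1 acceptor as listed: tgtctccgcagggAGtggcaccacttcctg
Pebp1 donor as annotated: cccaaattcagGCcagttggggaaaagatg
Pebp1 acceptor as annotated: tgtctccgcAGggagtggcaccacttcctg
Ciao2b donor as listed: cgggagatcttcgatATccgtcgctgcagg
Ciao2b acceptor as listed: cttcacttggcacATcttatccgctccatt
Ciao2b donor as annotated: cgggagatcttcgATatccgtcgctgcagg
Ciao2b acceptor as annotated: cttcacttggcACatcttatccgctccatt

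Members with GT-AG edges and no annotated counterpart are shown by Snhg11, a noncoding host gene of small nucleolar RNAs (chr2:158208900-158211008, plus strand, 1737 reads). The capitals mark the first and last 2 bases of the gap.
Snhg11 donor: gtgatggttcctcagGTactttgtaatctc
Snhg11 acceptor: gcttatgtcttccAGaaaatgaagtcccag

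The next set shows members without GT-AG edges whose 2 ends share a run of bases, and here the capitals mark that run. In Actg1, a cytoplasmic actin (chr11:120207343-120207487, minus strand, 2320 reads), in the sorting nexin gene Snx27 (chr3:94301985-94302043, minus strand, 64 reads) and in the noncoding RNA H19 (chr7:149761686-149761783, minus strand, 26 reads), the run at one end is the reverse complement of the run at the other, over 11, 15 and 14 bases. In the splicing factor gene Srsf1 (chr11:87864334-87864410, plus strand, 1068 reads) the same 9 bases stand at both ends in the same direction.
Actg1 donor: ctgctcccttggtatatgtTTAATACCCTG
Actg1 acceptor: atctgtgCAGGGTATTAAccaacagcagac
Snx27 donor: ctgctggcttcagCACACTGCTGCTCCTtc
Snx27 acceptor: tttggAGGAGCAGCAGTGTGgctgaatact
H19 donor: ccttccttgcttGAGAGACTCAAAGCaccc
H19 acceptor: ggagataGCTTTGAGTCTCTCcgtatgaat
Srsf1 donor: tatctgaacaccataCAGAAACTTgttttg
Srsf1 acceptor: taactcatcattcccCAGAAACTTtttttg

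Finally, 2 members that run from one globin gene into its neighbouring copy show runs that fill almost the whole window, again in capitals. One joins Hba-a1 to Hba-a2 (chr11:32184278-32197097, plus strand, 58 reads) and the other Hbb-bs to Hbb-bt (chr7:110962069-110976079, minus strand, 41 reads).
Hba-a1 donor: ctcCTGAGCCACTGCCTGCTGGTGACCTTG
Hba-a2 acceptor: CTGAGCCACTGCCTGCTGGTGACCTTGgct
Hbb-bs donor: gaAGGCCCATGGCAAGAAAGTGATAACTGC
Hbb-bt acceptor: AGGCCCATGGCAAGAAAGTGATAACTGCct

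The first question was where the members lie, since the set was to be divided into junctions inside and outside annotated genes. Of the 14161 members, 7403 (52.3%) lay with both edges inside 1 gene of the same strand, 3479 (24.6%) touched no gene, 2509 (17.7%) overlapped a gene only in part or ran between genes, and 770 (5.44%) lay inside a gene of the opposite strand. The table carries a mark whose meaning is not given. All 569 marked members whose bases could be read had GT-AG edges, none of the 1630 readable unmarked members had, and all 7173 readable annotated junctions with the mark had. Marked members are therefore called GT-AG members, although none of those outside genes could be read.

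GT-AG members and unmarked members fell in different places. Inside genes 1598 of the 7403 members were GT-AG (21.6%), against 2809 of the 3479 outside genes (80.7%), 518 of the 770 antisense to a gene (67.3%) and 1230 of the 2509 that overlapped a gene in part (49.0%). Over all members the share was 43.5%. It was 96.0% among the junctions with 1 new site, 99.8% among those joining known sites and 99.7% among annotated junctions past the same thresholds. Those 3 kinds are defined by 1 or 2 edges at known sites, and 99.5% of readable annotated junctions were GT-AG. The contrast with the members is thus set in part by the definition of the kinds. Before the thresholds, 836588 junctions of the table had 2 new sites, of which 636721 rested on 1 read, and 11.2% of the 836588 were GT-AG.

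**Figure D1:**
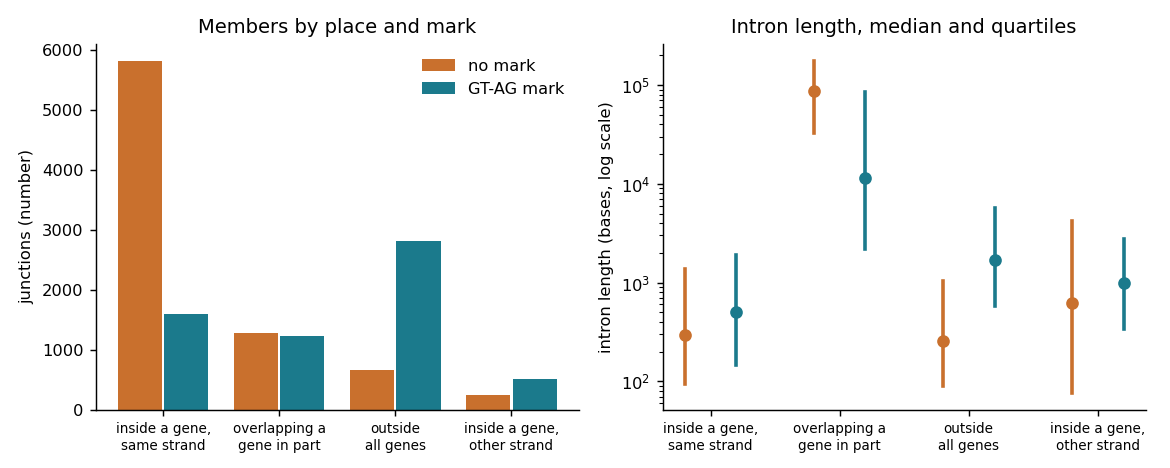
The number of members (left, bars) and their intron length in bases on a log scale (right, medians with quartiles) by place relative to mm9 genes, with GT-AG members and members without the mark drawn separately. Inside genes unmarked members outnumber GT-AG members by 5805 to 1598, outside genes the order turns to 670 and 2809, and the members that overlap a gene in part are the longest.

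Intron length also differed between the 2 groups. The median gap was 931 bases over all members (quartiles 179 and 5563), 1557 bases in GT-AG members and 494.5 in unmarked ones, beside 1382 bases in annotated junctions, 1315 in those with 1 new site and 6706 in those joining known sites. Unmarked members inside genes were short, with a median of 294 bases. Unmarked members that overlapped a gene in part were long, with a median of 86380 bases. In all, 624 gaps were under 50 bases, of which 593 were unmarked, and 1031 were over 100000 bases.

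The 5 longest gaps all overlapped genes in part. The longest, chr12:19336791-20930996, spanned 1594206 bases and had 11 reads. On chromosome 5, 2 gaps that began in the cytochrome genes Cyp3a25 and Cyp3a11 spanned 1053386 and 930723 bases. Each had 64 reads, 12 in the first and 52 in the second replicate number. These 2 gaps share their acceptor edge and their read numbers, and whether they count the same reads was not tested. The shortest gaps were 31 bases long, a length shared by 20 members of which 1 was GT-AG. The 5 of these listed first by position were unmarked and lay in Marcks (11 reads), a substrate of protein kinase C, in Jup (26 reads), a junction protein, antisense to Tfap2d (16 reads) and at 2 places antisense to Zc3h7a (76 and 11 reads).

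Most members were shallow. The median was 21 reads over both replicates, against 226 for annotated junctions, while 2099 members had 100 reads or more and 266 had 1000 or more. At the read threshold, the 1240 members of exactly 10 reads had a GT-AG share of 39.4% and a median gap of 636 bases, and the 1418 junctions left out at 9 reads had 40.1% and 610 bases. At the reproducibility threshold, the 360 members at 0.079 had a GT-AG share of 27.2%, and the 311 junctions left out at the next value, 0.136, had 18.6%. The read threshold thus cut between junctions that were alike in these measures, while the GT-AG share was lower just outside the reproducibility threshold than just inside it.

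Inside genes, members fell into exons and introns in different ways. Of the 1598 GT-AG members, 684 (42.8%) lay wholly within 1 annotated exon with a median gap of 193.5 bases, and 549 (34.4%) lay wholly within 1 annotated intron with a median of 1264 bases. Of the 5805 unmarked members, 1938 (33.4%) lay within 1 exon with a median gap of only 84 bases, 1238 (21.3%) within 1 intron with 278.5 bases, and 1864 (32.1%) had 1 edge in an exon and the other in an intron. This last class was the deepest, with a median of 39 reads in unmarked members.

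The deepest members inside genes were listed beside annotated introns rather than far from them. For 1127 members (7.96%), all inside genes, an annotated intron of the same strand and the same length lay 1 to 10 bases away, so that both edges were moved by the same number of bases. These members of equal length held 514241 reads, or 35.5% of all member reads, with a median of 164 reads against 19 for the other members, and made up 121 of the 266 members with 1000 reads or more. For 1100 of them the table held no row at the annotated position itself. Of the 27 with such a row, 12 had more reads than it.

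Most of these members were unmarked (1062) and 65 were GT-AG. On the plus strand the annotated position was 2 bases higher for 389 unmarked members, 3 higher for 109 and 1 higher for 89. On the minus strand it was 1 base higher for 281 and 2 higher for 78. Among all readable unmarked members, 1629 of 1630 stood at the lowest genome coordinate that gives the same joined sequence, so the listed position was the leftmost of its equivalent positions.

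**Figure D2:**
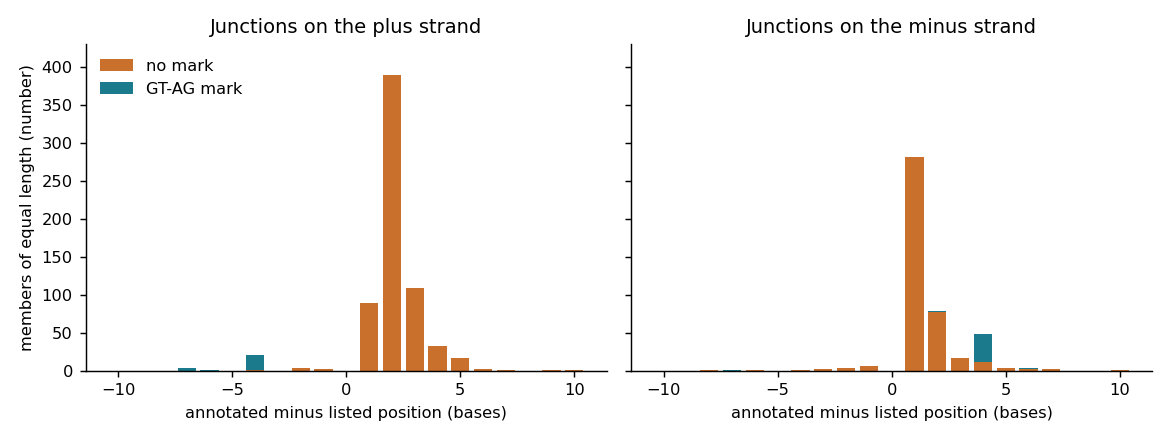
The number of members of equal length (vertical axis) by the distance in bases from the listed to the annotated position (horizontal axis), for the plus and the minus strand, with unmarked and GT-AG members stacked. The unmarked members peak at 2 bases on the plus strand (389 members) and at 1 base on the minus strand (281 members), and GT-AG members sit mostly at 4 bases, on opposite sides on the 2 strands.

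At the annotated position the introns of these unmarked members were rarely GT-AG. Of 86 that could be read there, 66 (76.7%) were GC-AG, 4 were AT-AC and 2 were GT-AG, whereas among 7208 readable annotated junctions 99.5% were GT-AG and 20 (0.277%) were GC-AG. Slc25a3 above is one of the GC-AG introns.

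The GT-AG members of equal length had their own distance. In 56 of 65 the annotated intron lay 4 bases upstream along the transcript, as in Pebp1 above, for which no shift of the gap leaves the joined sequence unchanged, so that the listed and annotated placements join different bases. Fkbp8, a prolyl isomerase of the mitochondrial membrane, was the deepest, with 3849 reads (2091 and 1758 in the first and second replicate number) and a distance of 6 bases. Pebp1 followed with 2139 and 1150 reads. The next were Mmp14 (1413 reads), a membrane-bound metalloproteinase, Uba2 (1374 reads), a subunit of the SUMO-activating enzyme, Ccar2 (1370 reads) and Meis2 (1096 reads), a homeobox factor of the developing brain.

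Of the 15 members inside genes with the most reads, 12 were of equal length to an annotated intron. The deepest of all was in Ptprs, a receptor phosphatase of growing axons, at chr17:56560784-56561547 with 11065 reads in the first and 7592 in the second replicate number, 4 bases from an annotated position that had 123 reads. Crmp1, a collapsin response mediator, had 5800 and 6016 reads at chr5:37671016-37671702. Klc1, a kinesin light chain, had 5745 and 5111 reads at chr12:113015247-113016228. For Crmp1 and Klc1 the annotated position had no row, and the 2 replicate numbers were close.

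The next members of this kind lay in genes of metabolism, splicing and signalling. The glycolytic gene Pkm had 5713 and 4378 reads at chr9:59519531-59519725. Slc25a3 had 5551 and 4376. The spliceosome component Sf3b1 had 5730 and 4070 at chr1:55044999-55047145. In these 3 genes the first replicate number was the higher one, as it is for all junction reads in sum. Cdk5, a kinase of young neurons, differed more, with 5845 and 3059 reads at chr5:23925661-23926075. The ubiquitin ligase gene Nedd4 had 2536 and 2986 reads, Dazap2 had 3417 and 1617, the superoxide dismutase gene Sod1 had 2561 and 2114, and Dpysl5, another collapsin response mediator family gene, had 1753 and 1835.

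The reads of these members were set against their host gene. For every gene with 3 annotated junctions or more, a member's reads were divided by the median reads of the annotated junctions. Members of equal length reached a median of 0.885 of the host's junction level (quartiles 0.491 and 1.28), and 791 of 1062 (74.5%) reached 0.5 or more. Other GT-AG members inside genes had a median of 0.0518, with 11.1% at 0.5 or more, and other unmarked members 0.0280, with 5.91%. Members of equal length thus had reads near those of the annotated introns of the same gene, and most other members were far below them.

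**Figure D3:**
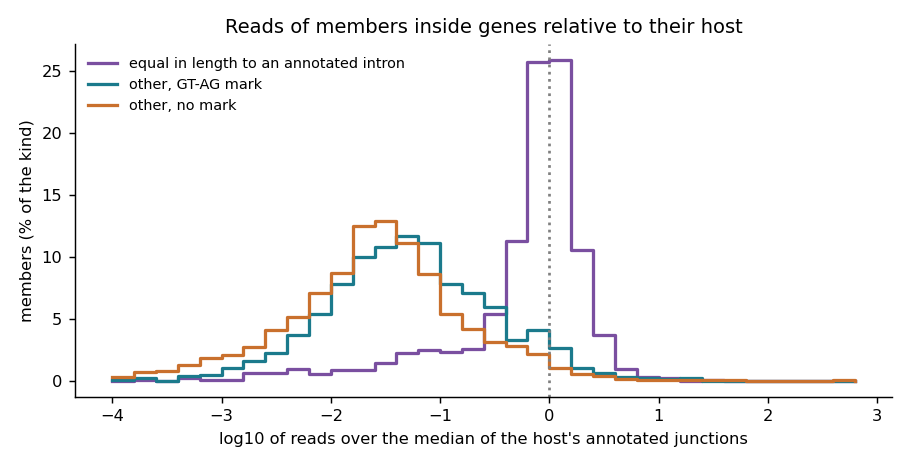
The share of members inside genes (vertical axis, percent of each kind) by the log10 of their reads over the median of the host's annotated junctions (horizontal axis), for members of equal length, other GT-AG members and other unmarked members. The members of equal length peak near the dotted line of equality (median 0.885), while the other kinds lie lower, with medians of 0.0518 and 0.0280.

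Among the 13034 other members, a common move of 1 to 10 bases put both edges on known sites for 46 and 1 edge on a known site for 1878. Of the readable unmarked ones, 100 of 1544 had a GC-AG reading and 30 an AT-AC reading among their equivalent positions. Psap, the precursor of lysosomal saposins (2524 and 2108 reads), and Pcbp2, a poly(C)-binding protein gene (2050 and 2267 reads), were the 2 members among the deepest inside genes that had no annotated intron of equal length but still had reads near those of their host, at 0.529 and 1.01 of the median. Peak1, a pseudokinase gene, was of another kind. Its gap of 33 bases at chr9:56071575-56071607 had 2689 reads in the first and 10393 in the second replicate number, 485 times the median of its host, and its acceptor edge lay also within the small gene Gm24270.

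Among GT-AG members inside genes that had no annotated intron of equal length, the deepest in named genes were as follows. Ssr2, a subunit of the translocon-associated complex, had 1682 and 1338 reads at chr3:88383609-88383801, or 0.721 of its host's median. Sept3, a neuronal septin gene, had 1319 and 1423 reads, at 0.655 of its host. Fnbp1l, which couples membranes to actin, had 778 and 1180 reads, at 0.896. These 3 junctions had reads close to those of annotated junctions, unlike most GT-AG members. Mdga2, a synaptic adhesion gene, had 993 and 436 reads at chr12:68160512-68160626, which was 17.8 times the median of its annotated junctions. The Snhg11 member shown above had 956 and 781 reads, at 0.256.

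Unmarked members that were neither of equal length nor readable as GC-AG or AT-AC more often had bases shared between their 2 ends than annotated junctions had. There were 1414 of these with readable sequence, with a median gap of 96 bases, and 1181 of them lay within 1 exon. Sequence was read only in exons, so most members within introns are absent from these shares. Members of 1 place, such as those of Cacfd1, count separately. Of the 1414, 229 (16.2%) had an inverted run, meaning 8 bases or more in 1 window whose reverse complement stands in the other. The share was 1.06% in GT-AG members (6 of 565), 1.45% in junctions with 1 new site, 1.28% in annotated junctions and 1.44% in annotated junctions under 200 bases. For runs of 10 bases or more it was 4.53%. A direct run of 8 bases or more, the same letters in the same direction, was present in 335 (23.7%), in 15.9% of GT-AG members, and in 1.32% of annotated junctions. Either run was found in 530 of the 1414 (37.5%). The windows of these members had a GC content of 56.6%, against 52.9% in GT-AG members and 51.7% in annotated junctions, and its part in the runs was not tested.

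In 210 of the 229 the inverted run began on the intron side of the donor window, to within 2 bases, as in Actg1 above, where the run ends the donor window. It lay on the intron side of both windows in 96 of the 229. The members printed above had reads in both replicate numbers, which was not so for every member with a run: Pja1 with an inverted run had 35 and 0. Actg1 had 914 reads in the first and 1406 in the second replicate number, Snx27 had 38 and 26, and H19 had 15 and 11. The Srsf1 member with the direct run had 645 and 423.

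**Figure D4:**
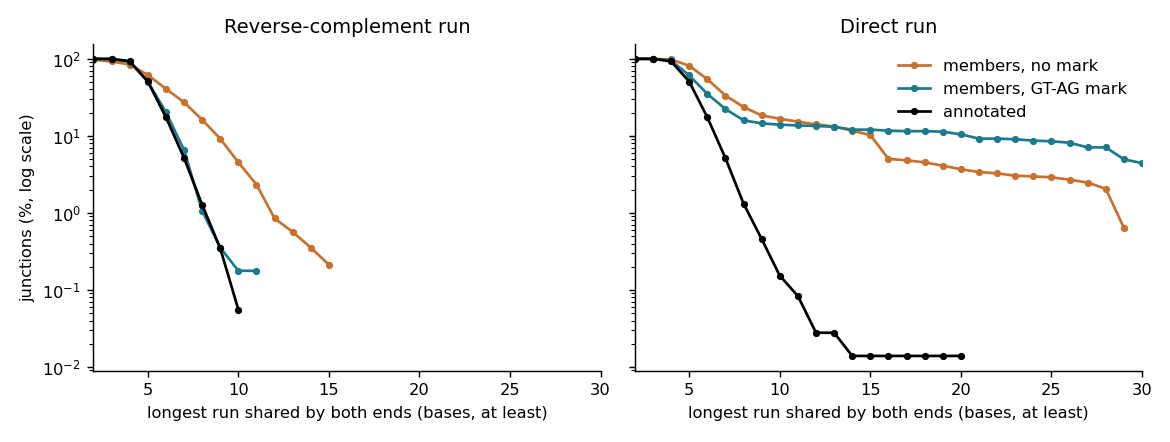
The share of readable junctions (vertical axis, percent, log scale) whose 2 ends share a run of at least the length on the horizontal axis (bases), for inverted and for direct runs, in unmarked members, GT-AG members and annotated junctions. At 8 bases the inverted share is 16.2% in unmarked members, 1.06% in GT-AG members and 1.28% in annotated junctions, and direct runs of 12 bases or more are held by 14.1% and 13.5% of the 2 kinds of members.

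Some GT-AG members joined stretches that were alike over the whole window. In 25 of the 569 readable GT-AG members both windows held the same 30 bases, against none of 1630 unmarked members and none of 7208 annotated junctions. In the deepest member of Gm10800 the 2 windows shared a run of 26 bases but were not identical. It had 365 reads in the first and 1495 in the second replicate number. The gene stood at 13.3 and 61.3 TPM in replicates 1 and 2, and no source ties these to the read numbers.

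Host genes with many members differed in kind. Smo, the transducer of Hedgehog signals, held the most, with 207 unmarked members of which 206 lay within introns. The deepest had 93 and 131 reads, and 205 of them formed 1 overlapping group of 1411 bases at chr6:29697680-29699090. Klhl18, an adaptor of a ubiquitin ligase, held 63 unmarked members, all within introns. Cacfd1 held 58 unmarked members, all within 1 exon, with a median gap of 75 bases and up to 360 and 325 reads, and both ends of its deepest member hold a run of alternating T and G. In these 3 genes no member was GT-AG.

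Firre was the opposite case. This noncoding RNA from the X chromosome held 77 members, all GT-AG, of which 68 lay within annotated introns, with gaps of 79 to 49450 bases between 34 donors and 27 acceptors. They summed to 5687 and 3509 reads, and the deepest, at chrX:47938025-47945101, had 765 and 480, where the median annotated junction of the gene had 240.5. Firre stood at 28.0 and 20.1 TPM in replicates 1 and 2, to which the read numbers are not tied. The remaining hosts among the 10 with the most members were 2610005L07Rik (85 members, 14 GT-AG), Tusc3 (49, 1 GT-AG), Gm20388 (42, 24 GT-AG), Efl1 (39, none), Snhg11 (39, 6 GT-AG) and Tubb2b (38, 2 GT-AG). The span annotated as Gm20388 covers chr8:122434741-126869622 and so takes in many other genes.

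Members in families of genes for neural RNA processing and adhesion were counted beside those of all expressed genes. Of the 14406 genes of the mm9 annotation whose mean level reached 1 TPM, 24.0% held at least 1 member inside them (3455 genes). Of 32 RNA-binding and splicing regulators, 17 did (53.1%), with 73 members of which 6 were GT-AG. Nova1, a neuronal splicing factor, had 23, all unmarked and within introns, with 1003 and 1397 reads. Hnrnpa2b1 had 12 members and Rbfox2, another neuronal splicing factor, had 2, one of equal length to an annotated intron with 1078 and 1127 reads. Nova2, Rbfox3, Elavl2, Elavl4 and Srsf3 held none. Among genes whose mean reached 1 TPM, hosts had a median of 41.0 TPM. The median was 17.1 TPM over all 15240 genes at that level, whether or not they are in the mm9 annotation. The part of expression in the counts of hosts was not tested.

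Of 30 long adhesion and synapse genes, 15 were hosts, with 39 members of which 1 was GT-AG and 4 were of equal length to an annotated intron. Those 4 were in Cntnap2, a neurexin-family gene (429 and 499 reads), in the axon guidance receptor gene Robo1 (256 and 394), in the teneurin gene Tenm4 (112 and 136) and in Magi2, a synaptic scaffold gene (154 reads in all, 53 of them in the first number). Each had reads in both replicate numbers. The neural adhesion gene Ncam1 had the most members, 11, none GT-AG.

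All 14 axon and microtubule genes were hosts, with 123 members of which 13 were GT-AG. Tuba1a held 30 and Tubb2b 38. Map1b, a microtubule-associated protein gene, held 9 members with 17 reads in the first and 175 in the second replicate number. Its level was 99.2 and 250 TPM in replicates 1 and 2, which cannot be matched to the read numbers. Of 18 long noncoding RNAs, 9 were matched by name, and 6 of these were hosts, with 73 members of which 12 were GT-AG. Snhg11 held 39, the imprinted Meg3 13, Xist 8, H19 7 and Malat1 5. Dlx6os1, transcribed beside the interneuron gene Dlx6, held 1 GT-AG member of 11 reads, and Neat1, Pantr1 and Airn held none.

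Some members that overlapped a gene in part joined 2 genes. Of the 2509, 498 ran from a gene into another of the same strand, 414 of them unmarked and 84 GT-AG, over 148 gene pairs, of which 20 had 2 members or more. The pairs with the most members are described here, and whether reads are counted more than once between gene copies was not tested. The beta-tubulin pair Tubb2b and Tubb2a was joined by 154 members with gaps between 52223 and 54812 bases, with 4590 reads in the first and 3089 in the second replicate number. The alpha-tubulin pair Tuba1a and Tuba1b was joined by 121 members, with 2115 and 2673 reads. The alpha-globin pair Hba-a1 and Hba-a2 had 27 members with 306 and 345 reads, and the beta-globin pair Hbb-bs and Hbb-bt had 20 with 203 and 198.

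All 4 pairs are neighbouring copies of abundant genes, and the gaps within each pair were similar in length. They ran from 17168 to 19166 bases in the alpha-tubulin pair. The range was 12175 to 13137 bases in the alpha-globin pair and 13922 to 14665 in the beta-globin pair. The same held at lower depth for Gprasp1 and Gprasp2 (6 members), Arxes2 and Arxes1 (4) and Rtl8b and Rtl8a (4), in each of which no member was GT-AG. In the globin pairs the sequence could be read. A direct run of 20 bases or more stood at both ends of 11 of 21 alpha-globin members, with a median run of 26 bases, and of all 11 beta-globin members, with a median of 28. Of the remaining members that overlapped a gene in part, 473 had only the donor in a gene of the same strand (262 GT-AG), 689 only the acceptor (319 GT-AG), and 849 neither.

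GT-AG members with only the acceptor in a gene began outside it and ended within it. The deepest ended in Elob, the elongin B gene, at chr17:23965946-23966049 with 4994 and 2870 reads. The one ending in Nrbp2, at chr15:75920356-75920481, had 2057 and 1449 reads. The one ending in Celf3, a neural RNA-binding protein gene, had 954 and 774 at chr3:94282299-94283067, and the one ending in Dapk3, a kinase of the cell death pathway, had 474 and 535. The first replicate number was the higher one in Elob, Nrbp2 and Celf3 and the lower one in Dapk3. The deepest unmarked members that overlapped a gene in part spanned long distances, as at chr4:121870932-122132563 (261632 bases, 2277 and 4082 reads) and chr12:34505011-34647728 (142718 bases across Twist1, 2251 and 2370 reads).

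Many members lay in chains. Members were counted as linked where they shared a splice site, or where their gaps did not overlap and lay within 1000 bases on the same strand. Overlapping gaps without a shared site were not linked directly. By this count 8137 of 14161 (57.5%) were linked, and linking was more frequent outside genes than inside. Outside genes 75.9% of GT-AG and 71.8% of unmarked members were linked, and inside genes 53.5% and 42.7%. From 2460 acceptors of GT-AG members outside genes, 1139 (46.3%) had a donor of another such member within 1000 bases downstream, and the median stretch between them was 123 bases (quartiles 82 and 166). Inside genes the share was 33.4% with a median of 126 bases. Linked members share sites or stretches and are not independent of each other.

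The de novo transcript models, which were built from reads without the annotation, held 1162 of the 2809 GT-AG members outside genes as introns (41.4%). They held 27.6% of all GT-AG members, 13.3% of the unmarked ones and 72.5% of annotated junctions, beside 9.63% of junctions with 1 new site and 5.97% of those joining known sites. Both flanks lay in contigs, stretches of continuous read coverage, for 90.1% of members and 97.6% of annotated junctions. Models and contigs come from the same libraries as the junctions.

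Single GT-AG members outside genes could be deeper than the median annotated junction. The deepest that was also a de novo intron was chr3:88033288-88033606 with 3695 reads in the first and 2352 in the second replicate number, 13669 bases from the nearest gene. The next such member was chr11:3024128-3025790 with 2587 and 1470 reads, and then came chr14:31944563-31947924 with 2221 and 1471 reads, 114 bases from Nt5dc2 on the same strand. A longer one, chr13:84165309-84204255, had 1998 and 1108 reads over 38947 bases. In all 4 the first replicate number was the higher one. The deepest unmarked member outside genes was a gap of 44 bases at chrX:86005407-86005450, 514 bases from the microRNA gene Mir1906-2, with 10258 and 5972 reads.

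Groups of linked members ranged from all GT-AG to none. Of 121 groups with 10 members or more, 55 were GT-AG in at least 90% of their members, 26 held no GT-AG member, and the rest were mixed, among them the 2 largest, with 37 GT-AG members of 290 across Tuba1a and Tuba1b and 15 of 219 across Tubb2a and Tubb2b. Of the 55, 12 lay on the minus strand of chromosome 7 between 66327062 and 69354333, with 301 members. Groups can overlap each other, because overlapping gaps without a shared site do not link, so the groups are not all separate places. On chromosome 7 the group at 66327062-66783281 covers the span of the largest of the 12. That largest group, chr7:66649195-66766448, had 52 members of which 50 were GT-AG, with 2030 and 2599 reads. The next, chr7:68851739-69076233, had 39, all GT-AG, with 4207 and 2573. Chromosome 7 held the most members of any chromosome, 1413, a count that was not set against all junctions of that chromosome.

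The groups wholly outside genes varied in the same way. The largest, chr4:3016655-3018254, was mixed, with 46 members (24 GT-AG) within 1600 bases, with 26541 and 11517 reads. The next 3 held no GT-AG member. They were chr10:19147077-19148553 (28 members, 306 and 359 reads), 68664 bases from Olig3, a transcription factor gene of neural progenitors, chr13:74666071-74668193 (26 members, 222 and 321 reads) and chr3:59849142-59849845 (23 members, 277 and 455 reads). The fifth, chr15:76186430-76193960, had 17 GT-AG members of 18 and 996 and 566 reads, 1619 bases from Maf1, a repressor of RNA polymerase III. A group of 15 GT-AG members at chr12:57592046-57629794 lay 3127 bases from Nkx2-1, a transcription factor gene of the ventral forebrain. It had 1152 reads in the first and 325 in the second replicate number. Nkx2-1 stood at 62.8 and 22.4 TPM in replicates 1 and 2, which cannot be matched to those read numbers.

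GT-AG members antisense to genes were led by a chain across Gapdhs, which encodes the sperm form of a glycolytic enzyme. The 3 junctions had 1118 and 558, 856 and 540, and 610 and 337 reads, the first of them at chr7:31517781-31519722, and all 3 were de novo introns. A junction antisense to Gtf2e2, a general transcription factor gene, had 797 and 402 reads, one antisense to Epo, the erythropoietin gene, 590 and 393, and one antisense to Rab26 498 and 213. These had more reads in the first replicate number, whereas a junction antisense to the unnamed gene ENSMUSG00000091795 had 340 and 397. The deepest unmarked antisense member lay opposite Zc3h7a at chr16:11144155-11144217, with a gap of 63 bases and 1107 and 5446 reads.

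Last, the 2 replicate numbers were compared. The background was the 111622 junctions with 100 reads or more that had also passed the reproducibility threshold. Among them the second number, scaled to the total junction reads, was 2-fold or more higher in 6.65% and 2-fold or more lower in 1.72%. Of the 2099 members of this depth, 203 (9.67%) were higher and 134 (6.38%) lower. GT-AG members were higher in 7.59% and lower in 9.44%, and unmarked members in 11.1% and 4.23%. The spread was wide in unmarked members outside genes, with 19 higher and 12 lower of 76. It was similar in unmarked members antisense to genes, with 8 higher and 3 lower of 28. With 1 library on each side these are counts past a fold, with no test.

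Some of the spread sat in whole groups. The group at chr17:39901096-39985490 (84 members, 83 outside genes) had 3142 reads in the first and 9598 in the second replicate number. The groups at chr4:3016655-3018254, above, and chr11:3000096-3242563 (78 members, 27105 and 13066 reads) leaned the other way. Efl1, a ribosome assembly factor gene, had 39 unmarked members within introns with 309 and 3295 reads. The gene stood at 5.76 and 7.97 TPM in replicates 1 and 2, which are not tied to the 2 read numbers. Members of such a group move together and weigh as 1 place.

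A further 418 members had no read at all in 1 replicate number, 234 in the first and 184 in the second, although they passed the reproducibility threshold. That is 2.95% of the members, beside 0.951% of junctions with 1 new site and 0.133% of annotated junctions. In 13 of them the other number was 100 or more, and none of these was GT-AG. Examples are Scube1 with 0 and 778 reads, a gap of 46123 bases that overlaps the gene in part, Psme1, a proteasome activator gene, with 0 and 629, and a Tuba1c junction with 199 and 0. The reproducibility value took 18 values over the table and followed a second score whose meaning is not given. How that score relates to the 2 replicate numbers was not tested.

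**Figure D5:**
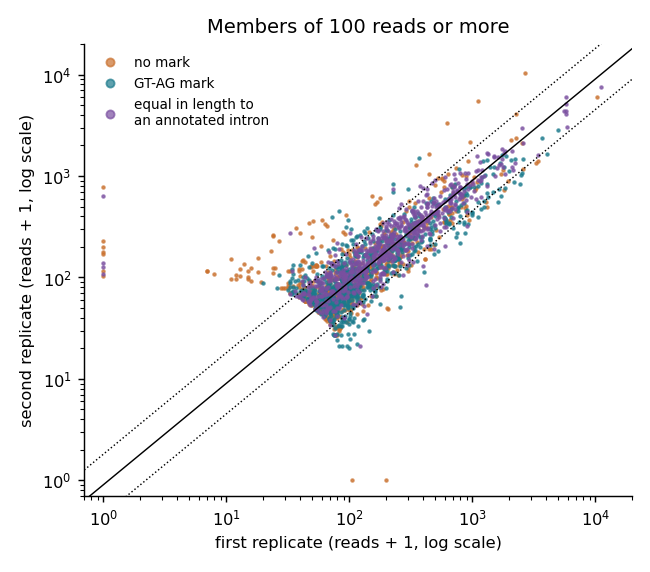
Reads plus 1 in the second replicate number (vertical axis, log scale) against the first (horizontal axis, log scale) for members of 100 reads or more, one point per member, with members of equal length, other GT-AG members and other unmarked members in separate colours. Most points follow the diagonal, and the 13 members with no read in 1 replicate number lie along the axes.

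Host genes themselves differed little between the libraries. The 3572 of 3681 hosts that were matched to the gene table had a median of 37.5 TPM in replicate 1 and 38.8 in replicate 2, with a median SD of 4.13 TPM (n = 2). On the scale of log2(TPM + 1), 2.38% of the 15240 genes whose mean reached 1 TPM were 2-fold or more higher in replicate 2 and 1.14% lower. Of the 3455 hosts at that level, 60 (1.74%) were higher and 29 (0.839%) lower, shares below those of all genes. Those lower in replicate 2 included the cortical gene Eomes (28.0 and 9.62 TPM), and those higher included Ncam1 (84.3 and 171 TPM) and Dpysl2 (88.1 and 181 TPM), a regulator of axon growth.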

How the data were processed

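Junction read counts, as the authors deposited them, are whole numbers summed over both replicates on mm9. The deposited table adds 2 replicate read numbers, a reproducibility fraction, a further score and marks whose meaning no source used here gives. The aligner of the junctions is not given in those sources either. Contigs hold a signal value per the deposited table. Ensembl 65 and de novo (Cufflinks) exon models were deposited on mm9; the design had expected the smaller exon table to hold the de novo models, but the source column of the larger one names Cufflinks, so that one was used. Gene levels are estimated (expected) counts and TPM on mm10 with GENCODE M4, and RPKM on mm9, as the authors deposited them, with 1.03e+08 and 9.75e+07 expected counts in replicates 1 and 2.

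Members were found by exact comparison of edges with annotated introns, and inside means within the span of 1 gene. Sequence came from GENCODE M21 transcripts with the identifier, chromosome, strand and exon lengths of an mm9 transcript (69031 of 95495), which let 2199 of 14161 members be read at both ends. Runs were searched between the 2 windows of 30 bases, over all letters, in both directions. The procedures were tested on simulated data, with Python 3.11.15, pandas 2.3.3 and numpy 2.4.6.

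With 1 group of 2 libraries no test was made: a call means 2-fold or more, on log2(TPM + 1) for genes, or on reads scaled to total junction reads. Counting error limits precision most near 10 reads, and PCR copies are not independent molecules. Named were the 15 members inside genes and the 15 others with the most reads, the 10 hosts with the most members, the 5 longest and 5 shortest gaps (ties by position), the 5 largest groups outside genes, and hosts in 4 gene lists. Other names, such as the deepest GT-AG members by place, the gene pairs, Gm10800, Actg1, Snx27 and members with no read in 1 replicate, were chosen after their values were seen, and of the rule's members those in 1 cluster are given as their group. The members and lists were chosen with earlier results of these data known. Alternatives varied the thresholds, the match of edges, the definitions of place, link and contig, and the unit of gene level. Some items are not reported here.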

Additional observations from a re-analysis of the deposited data

How the results depend on the processing

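A read minimum of 5, 20 or 50 in place of 10 gave 22361, 7461 and 3499 members, 11979, 3886 and 1894 inside genes, and median gaps of 789, 1086 and 1316 bases; with gaps of 50 to 500000 bases alone the median was 1047. The linked share was 54.0% at a distance of 300 bases and 63.3% at 5000, the share with both flanks in contigs was 86.0% with reproducible contigs alone, and the share in de novo models was 26.9% where 1 edge sufficed. The median host level was 68.6 CPM in expected counts, 4.67 in mm9 RPKM, and 37.5 to 38.8 TPM with either replicate left out. Other reproducibility limits gave 9658 to 16079 members, and counting an edge within 10 bases of a known one as known gave 11110. Of 52 alternatives, 29 stayed within 1.5 times the main count or within the error of the main value. For shares and the median gap that error takes members as independent, which linked members are not. For the host level it is the SD of the 2 library medians. The count of 29 is therefore a description only. Among alternatives chosen after seeing the data, the GT-AG share was 40.9% to 45.3%, members of equal length numbered 821 to 1269, the inverted-run share was 4.53% for runs of 10 bases or more and 17.5% at 20 reads or more, and 13743 members had reads in both replicates. The causes were not tested. No paired analysis was possible because the study has 1 group only. Depth limits what members near 10 reads show, and those under 100 reads were left out of the comparison of replicates. Sequence could be read for 2199 members only, none outside genes.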
